A study of Mus musculus with 117 samples.

Results

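The Cyp4a cytochrome P450 genes of the mouse were examined in hepatocytes, the metabolic cells of liver, for how their chromatin differs between 9 inbred strains. The 6 genes, Cyp4a10, Cyp4a12a, Cyp4a12b, Cyp4a14, Cyp4a31 and Cyp4a32, were taken by name from 21631 protein-coding genes on the autosomes and X. Each gene was read over its annotated span with 2 kb added to each side. The spans hold 744 bins of 200 bp, with no bin in 2 of the 6 genes, and lie in a window of 327.6 kb on chromosome 4 (mm10, 115297001 to 115624600).

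From left to right, Cyp4a12a (gene ID 277753) spans 115299046 to 115332815 and Cyp4a12b (13118) spans 115411624 to 115439034. Cyp4a14 (13119) lies at 115486200 to 115496158 and Cyp4a10 (13117) at 115518287 to 115533649. Cyp4a31 (666168) lies at 115563627 to 115579015 and Cyp4a32 (100040843) at 115600927 to 115622507. The annotation gave whole gene spans, so exons and introns were not separated.

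All animals were females of 12 weeks with no treatment named in the labels. CAST/EiJ, PWK/PhJ and WSB/EiJ are wild-derived strains, and A/J, DBA/2J, NZO/HlLtJ, 129S1/SvImJ, NOD/ShiLtJ and C57BL/6J are laboratory strains. For each strain, chromatin immunoprecipitation sequencing (ChIP-seq) covered H3K4me1, H3K4me3, H3K27ac and H3K27me3 in 3 mice, with 1 input library. The authors combined the libraries of a strain into 1 map that gives every bin the number of 1 of 14 chromatin states. A strain is therefore 1 value, no spread between mice can be given, and the read depth is unknown. A state present in some of the cells and a weaker mark in all of them cannot be told apart.

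CYP4A enzymes sit in the endoplasmic reticulum and add a hydroxyl group to the omega end of fatty acids, the first step in breaking them down from that end. Cyp4a10 and Cyp4a14 are classical targets of PPAR-alpha, the nuclear receptor that turns on fatty acid oxidation in fasting liver and under fibrate drugs. Cyp4a12a and Cyp4a12b depend on androgen and are known as genes of male liver and kidney, where they convert arachidonic acid to 20-hydroxyeicosatetraenoic acid. The genes arose by tandem duplication, and several are close copies, so reads can be hard to place among them. How repeated reads were handled is not given in the sources used here, and its part in the results was not tested. Whether reads of each strain were aligned to that strain's own genome is not given either. State 14 from absent marks and state 14 from sequence that is missing or diverged in a strain cannot be told apart, which bears most on the wild-derived strains.

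State numbers serve only as names, because the mark content of a state is not given in the sources used here. Landmark genes describe where states 1 to 3 and state 13 lie. All 10 hepatocyte markers, among them Alb and Apoa1, held state 3 in every strain, as did 45.1% of protein-coding genes. States 1 to 3 took a median of 81.1% of the bins of these markers. The median was 0.378% for 5 endothelial markers, 0.0344% for 5 Kupffer cell and leukocyte markers, 0% for 5 stellate markers and 0.229% for 5 bile duct markers. Single markers lay well above these medians. The highest of each list were Stab2 at 14.8%, Csf1r at 12.2%, Reln at 1.25% and Sox9 at 19.7%. Reln held state 3 in 9 strains. The 10 developmental regulators had a median of 78.4% of their bins in state 13, from 21.5% in Gsc to 99.2% in Neurog1, with 33.0% in Pax6. Gsc had 29.0% of its bins in states 1 to 3 in WSB/EiJ. State 14 is the widespread background state. Bins outside state 14 are called marked below, which is a name only, since the marks behind each state are not given. The share of bins in states 1 to 3 is used below as the level of a gene. It is taken over the whole padded span, from 71 bins in Cyp4a14 to 190 in Cyp4a12a. A block of a given length thus counts for less in a longer gene, and comparisons between genes were not adjusted for span length. States 1 to 3 were chosen because they were the main states of hepatocyte genes in an earlier look at these data. State 13 was likewise the main state of developmental regulators there. The landmark values are therefore a description and no independent check of that choice.

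One promoter is shown, the only one available among the 6 genes. The start site it leads to carries a different state in different strains, as it does in 43.2% of protein-coding genes. Of the 6 genes, Cyp4a32 matched the RefSeq promoter table (GRCm38.p6), and Cyp4a10, Cyp4a12a, Cyp4a12b, Cyp4a14 and Cyp4a31 did not. For these 5 genes the ends are called left and right by coordinate. The start site of Cyp4a32 is at its left end, at 115600938 on the plus strand. The 250 bases before it, chr4:115600688-115600937, are given 5′ to 3′, with capitals at the TATA box and CCAAT box matches.
Cyp4a32 promoter: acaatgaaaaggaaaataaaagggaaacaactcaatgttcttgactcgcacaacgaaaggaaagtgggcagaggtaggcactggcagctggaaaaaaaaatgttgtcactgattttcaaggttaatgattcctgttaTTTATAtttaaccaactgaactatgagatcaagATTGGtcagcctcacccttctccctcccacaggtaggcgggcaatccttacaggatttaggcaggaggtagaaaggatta

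Both strands were searched. TATAAA matched once, on the minus strand at -113 to -108 from the start site, and 12.5% of 17274 protein-coding promoters of this length hold it. CCAAT matched once, on the minus strand at -80 to -76, against 36.7% of promoters. CANNTG, the E box, matched at -166 to -161 and at -101 to -96, and 62.7% of promoters hold it. AGGTCA, the core of nuclear receptor sites, was not found and is in 12.6% of promoters. A direct repeat of AGGTCA with 1 base between the copies, which contains the single core, was not found and is in 0.0463%. TTCNNNGAA, a STAT site, was not found and is in 6.77%. The window had 41.6% G and C bases and 3 CG dinucleotides, against medians of 55.6% and 10 over all these promoters.

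The 6 genes fell into a right-hand block with bins of states 1 to 3 in every strain and a left-hand pair with few such bins. Genes of the right-hand block could still lie mostly in state 14. It held 78.3% of Cyp4a32 in C57BL/6J and 69.0% of Cyp4a14 in PWK/PhJ. Cyp4a10, Cyp4a14, Cyp4a31 and Cyp4a32 each had bins of states 1 to 3 in all 9 strains, as did 56.9% of protein-coding genes. In Cyp4a12a such bins were found in 6 strains and in Cyp4a12b in 8. None of the 6 genes lacked these states in all strains, against 29.9% of protein-coding genes. The median level over the 6 genes was 25.7%, against 5.14% over all protein-coding genes. State 13 was at 0 bins in Cyp4a10, Cyp4a14, Cyp4a31 and Cyp4a32 in every strain. The median share of state 13 over all protein-coding genes was also 0%, so such absence is common. No member carried state 13 in all 9 strains, against 24.5% of protein-coding genes. The map of states across the cluster shows both parts.

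**Figure D1:**
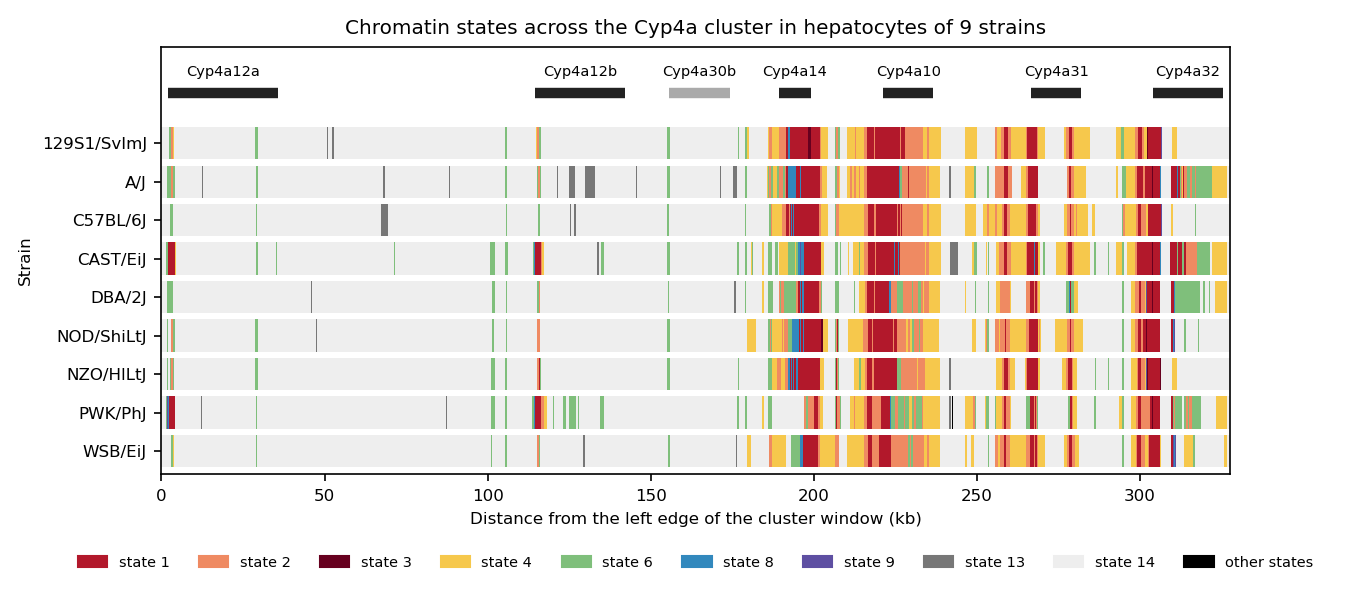
Chromatin states of 200-bp bins in 9 strains (rows) by distance from the left edge of the cluster window in kb; colours are states, black bars are the 6 genes and the grey bar is Cyp4a30b. States other than 14 are denser from Cyp4a14 to Cyp4a32 than from Cyp4a12a to Cyp4a30b. State 14 still covers most of Cyp4a32 in C57BL/6J, 129S1/SvImJ, NZO/HlLtJ, NOD/ShiLtJ and WSB/EiJ, and most of Cyp4a14 in PWK/PhJ. The sparse part holds state 1 blocks at the left ends of Cyp4a12a and Cyp4a12b in CAST/EiJ and PWK/PhJ.

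Cyp4a10, the PPAR-alpha-inducible hydroxylase, had the highest level of the 6. Its share of states 1 to 3 was 67.1% ± 14.8 (SD, n = 9 strains), with a median of 72.4%. The highest value was 77.6%, in C57BL/6J and 129S1/SvImJ, and the lowest was 30.6%, in PWK/PhJ. PWK/PhJ stood below all others, since the next lowest strain, DBA/2J, had 63.3%. The gene was marked from end to end: bins outside state 14 made up between 98.0% in NOD/ShiLtJ and 100% in 5 strains. The difference in PWK/PhJ was thus between states other than state 14. State 6 held 35.7% of its bins there, against a median of 3.06% over the 9 strains, and state 2 held 16.3% against a median of 38.8%.

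Around the left end of Cyp4a10 the strains were alike. All 11 bins centred on that end were in states 1 to 3 in all 9 strains, and the bin at the end itself was in state 1 throughout. The right end was in state 4 in all 9. Strains parted in the middle of the gene. In the central of 3 equal parts, states 1 to 3 took 100% of the bins in 129S1/SvImJ and C57BL/6J, 65.6% in DBA/2J and 12.5% in PWK/PhJ.

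State 3 was missing from Cyp4a10. No strain had a bin of state 3 in Cyp4a10, Cyp4a12a, Cyp4a12b or Cyp4a31, which is 4 of 6 members against 41.0% of protein-coding genes. Across genes, state 3 was the most frequent state of start-site bins, at 39.0%. A gene with a mean level of at least 50% and no state 3 in any strain, as Cyp4a10 is, was found in 28 of 21631 cases, or 0.129%. That limit was set after the values of Cyp4a10 had been seen. None of the 6 genes had state 3 in every strain, against 45.1% of protein-coding genes. Cyp4a14 had it in 2 strains and Cyp4a32 in 7, and state 3 in 1 to 8 strains is found in 13.9% of genes.

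Cyp4a14, the other classical PPAR-alpha target, varied most between strains. Its level was 52.1% ± 21.2 (SD, n = 9), with a median of 49.3%. It reached 81.7% in 129S1/SvImJ, 76.1% in C57BL/6J and 71.8% in NZO/HlLtJ. It was 32.4% in WSB/EiJ, 29.6% in CAST/EiJ and 25.4% in PWK/PhJ, so the 3 wild-derived strains were the 3 lowest. This was read from the values, and how often other genes have these 3 strains lowest was not counted. The SD over strains was above that of 99.6% of protein-coding genes. An SD of at least 5 points was reached by 4 of the 6 members, all but Cyp4a12a and Cyp4a12b, and by 18.2% of protein-coding genes.

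The variation of Cyp4a14 lay in its left and middle parts. In the right-hand of 3 equal parts, states 1 to 3 took 75% of the bins in PWK/PhJ and between 87.5% and 100% in the other strains. In the middle part they took 91.3% in C57BL/6J and 87.0% in 129S1/SvImJ, and 0% in CAST/EiJ, PWK/PhJ and WSB/EiJ. No state was common to all 3 of these strains there. State 14 filled the middle part in PWK/PhJ, which had 0% of its bins marked, while CAST/EiJ had 100% and WSB/EiJ 73.9% marked. PWK/PhJ had an unbroken stretch of state 14 of 9800 bp, from 115484201 to 115494000, which covered the left end of the gene but not the right. In the other 8 strains the longest stretch of state 14 in Cyp4a14 was between 0 and 1800 bp.

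**Figure D2:**
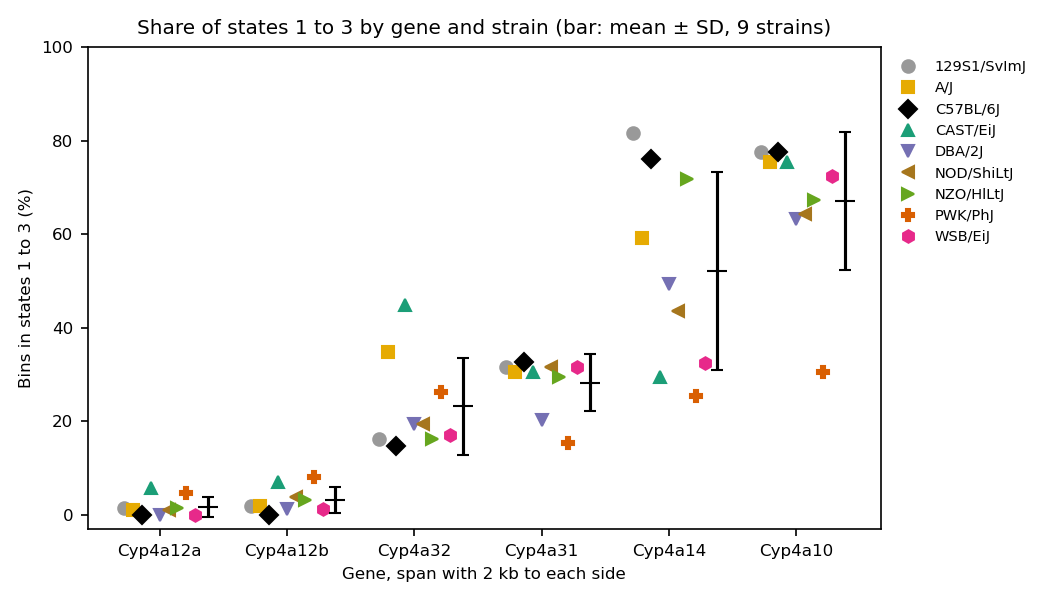
Share of 200-bp bins in states 1 to 3 (y axis, %) for each gene (x axis), with 1 point per strain and the mean and SD over 9 strains at the right of each group. Cyp4a10 lies highest, with PWK/PhJ alone at 30.6%, and Cyp4a14 is spread from 25.4% to 81.7%.

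Cyp4a31, a close relative of Cyp4a10, had an intermediate level of 28.2% ± 6.08 (SD, n = 9), with a median of 30.6%. The values ran from 15.3% in PWK/PhJ and 20.4% in DBA/2J to 32.7% in C57BL/6J, and the other 6 strains lay between 29.6% and 31.6%. Its left end was in state 1 in all 9 strains. Its right end was in state 4 in CAST/EiJ, NOD/ShiLtJ, C57BL/6J, A/J and 129S1/SvImJ and in state 14 in DBA/2J, NZO/HlLtJ, PWK/PhJ and WSB/EiJ. State 4 ranged from 5.10% of the bins in PWK/PhJ to 41.8% in CAST/EiJ.

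Cyp4a32 had a level of 23.3% ± 10.3 (SD, n = 9), with a median of 19.4%. It was 45.0% in CAST/EiJ, 34.9% in A/J and 26.4% in PWK/PhJ, and between 14.7% and 19.4% in the other 6 strains. CAST/EiJ and PWK/PhJ were high here and low at Cyp4a14, and C57BL/6J was lowest here and, with 129S1/SvImJ, highest at Cyp4a10.

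At Cyp4a32 several features divided the strains in the same way. The start-site bin, downstream of the promoter printed above, was in state 3 in A/J, CAST/EiJ, DBA/2J and PWK/PhJ and in state 1 in the other 5 strains. The right end was in state 4 in the same 4 strains and in state 14 in the other 5. Bins outside state 14 made up 85.3% in A/J, 84.5% in CAST/EiJ, 70.5% in DBA/2J and 64.3% in PWK/PhJ. They made up 41.1% in WSB/EiJ, 25.6% in NOD/ShiLtJ, 24.0% in 129S1/SvImJ and NZO/HlLtJ and 21.7% in C57BL/6J. The 4 strains and the 5 strains did not overlap in this share, and how often other genes divide strains in this way was not counted. These bins are neighbours on 1 chromosome in the same maps, so the 3 features are not independent, and no test was made between strain sets that the values themselves define.

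The part around the start site was shared, and the body of the gene was not. States 1 to 3 took all 5 bins centred on the start site of Cyp4a32 in every strain, and a start-site bin in these states in all strains was found in 43.1% of protein-coding genes. A change of state in that bin between strains was found in 43.2%. In the central of 3 equal parts of the gene, between 90.7% and 100% of bins were outside state 14 in A/J, CAST/EiJ, DBA/2J and PWK/PhJ. There WSB/EiJ had 46.5%, and the other 4 strains had between 2.33% and 13.95%. The marked body was not in the same states in all: states 1 to 3 took 69.8% of this part in CAST/EiJ, 41.9% in A/J, 20.9% in PWK/PhJ and 0% in DBA/2J. DBA/2J had 33.3% of all bins of the gene in state 6.

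**Figure D3:**
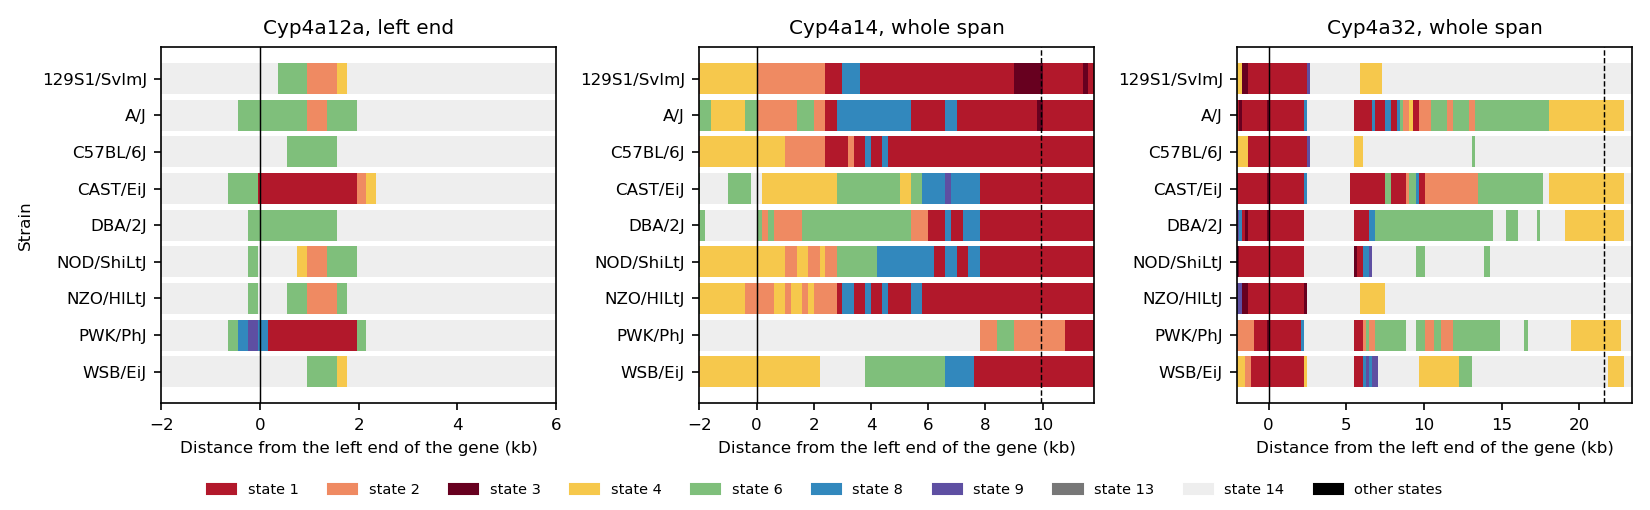
Chromatin states in 9 strains (rows) by distance in kb from the left end of Cyp4a12a, Cyp4a14 and Cyp4a32; solid lines mark the left end and dashed lines the right end of the gene. State 1 is at the left end of Cyp4a12a in CAST/EiJ and PWK/PhJ, state 14 covers most of Cyp4a14 in PWK/PhJ, and the body of Cyp4a32 is marked most in A/J, CAST/EiJ, DBA/2J and PWK/PhJ.

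Cyp4a12a and Cyp4a12b, the androgen-dependent pair, had few bins of states 1 to 3 in these females. States 1 to 3 took 1.75% ± 2.11 of the bins of Cyp4a12a (SD, n = 9) and 3.16% ± 2.76 of those of Cyp4a12b. State 14 held between 90% and 96.8% of Cyp4a12a. It held 70.3% of Cyp4a12b in PWK/PhJ, 79.7% in A/J and 84.8% in CAST/EiJ, and between 93.7% and 96.8% in the other 6 strains. In Cyp4a12a the level was 5.79% in CAST/EiJ and 4.74% in PWK/PhJ, and between 0% and 1.58% in the other 7 strains. In Cyp4a12b it was 8.23% in PWK/PhJ and 6.96% in CAST/EiJ, and between 0% and 3.80% in the other 7. C57BL/6J had 0% in both genes. CAST/EiJ and PWK/PhJ were thus above every other strain at each gene of the pair. How often other genes have these 2 strains highest was not counted. The genes of the pair are close copies, so they are not independent cases.

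Where a strain had bins of states 1 to 3 in a gene of the pair, they lay in the left-hand of 3 equal parts. Such bins were found in 6 strains in Cyp4a12a and in 8 in Cyp4a12b. In Cyp4a12a, CAST/EiJ had state 1 from 115299001 to 115301000, a stretch of 2000 bp that began 45 bp before the annotated left end. PWK/PhJ had state 1 from 115299201 to 115301000, and no other strain had a bin of state 1 in the gene. State 1 in these 2 strains alone was found in 52 of 21631 protein-coding genes, or 0.240%; this pattern was counted after it had been seen. In Cyp4a12b, state 1 ran from 115411601 to 115413400 in both CAST/EiJ and PWK/PhJ. NZO/HlLtJ had 400.0 bp of state 1 there, and the other 6 strains had none. Because the genes are close copies, the 2 blocks may share reads, which was not tested.

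Bins outside state 14 were also found further right. In the central of 3 equal parts of Cyp4a12b they made up 46.2% in A/J and 30.8% in PWK/PhJ, and at most 7.69% in the other 7 strains. State 13 took 16.5% of its bins in A/J, against 0% as the median of the 9 strains, and was present in 4 strains. PWK/PhJ had 17.1% of the bins of Cyp4a12b in state 6, against a median of 1.90%.

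The order of the 6 genes was tested within strains. For each of the 15 pairs of genes, the sign of the difference in level was exchanged in every combination over 9 strains, a two-sided exact permutation test with a smallest p of 0.00391. After Benjamini-Hochberg adjustment over the 15 pairs, 14 differed. Cyp4a10 was above Cyp4a31 in 9 of 9 strains by 38.9 points ± 9.83 (SD; exact permutation, raw p = 0.00391, adjusted p = 0.00586). Within 1 kb of the gene ends that difference was 3.03 points (adjusted exact permutation p = 0.536), so the call was lost there. Each of Cyp4a14, Cyp4a10, Cyp4a31 and Cyp4a32 was above both Cyp4a12a and Cyp4a12b in 9 of 9 strains, with the same raw and adjusted p. Cyp4a31 was 4.98 points ± 12.4 above Cyp4a32, higher in 6 strains and lower in 3 (exact permutation, raw and adjusted p = 0.242). These neighbours in the order did not differ beyond the spread between strains.

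Other neighbours in the order were less firm. Cyp4a14 minus Cyp4a10 was -15.01 points ± 18.2, with Cyp4a14 lower in 7 of 9 strains (exact permutation, raw p = 0.0352, adjusted p = 0.0377). This call was lost when A/J, CAST/EiJ, DBA/2J, NOD/ShiLtJ or WSB/EiJ was left out (adjusted exact p = 0.0753 for each) and without PWK/PhJ (adjusted exact p = 0.0586). It was also lost with segments of a single bin left out (adjusted exact p = 0.0544). Cyp4a14 was 23.9 points ± 19.2 above Cyp4a31, higher in 8 of 9 strains (exact permutation, raw p = 0.0117, adjusted p = 0.0146). Cyp4a14 was 28.9 points ± 27.8 above Cyp4a32, higher in 7 strains (exact permutation, raw p = 0.0234, adjusted p = 0.0270). Leaving out 129S1/SvImJ, A/J, C57BL/6J, DBA/2J, NOD/ShiLtJ or NZO/HlLtJ put its adjusted exact p between 0.0502 and 0.0541. Cyp4a12a minus Cyp4a12b was -1.41 points ± 1.10, with Cyp4a12a lower in 8 strains and equal at 0% in C57BL/6J (exact permutation, raw p = 0.00781, adjusted p = 0.0107). With states 4 and 6 added to states 1 to 3, that adjusted exact p was 0.941.

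State 13 was too rare here for the same test to make a call between genes. Cyp4a12a carried the state in 2 strains and Cyp4a12b in 4, and the other genes in none. The smallest raw p over the 15 pairs was 0.125 (exact permutation, adjusted p = 0.375), and 0 pairs had an unadjusted p under 0.05.

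Divergence of a gene is the percentage of its bins whose state differs between 2 strains, averaged over the 36 strain pairs. It was 56.6% for Cyp4a14, above 99.5% of protein-coding genes, and 44.9% for Cyp4a32, above 96.3%. Cyp4a31 had 34.9%, Cyp4a10 31.1%, Cyp4a12b 15.3% and Cyp4a12a 6.37%. The median of the 6 was 33.0%, against 19.7% over all protein-coding genes. A gene in state 14 throughout cannot diverge, so each was also set beside genes whose share outside state 14 lay within 5 points of its own. There Cyp4a14 was above 98.3% of 1241 genes, Cyp4a32 above 94.5% of 1788 and Cyp4a10 above 80.5% of 2508. Cyp4a31 was above 72.6% of 1604, Cyp4a12b above 83.9% of 2670 and Cyp4a12a above 43.2% of 2551. Without PWK/PhJ, Cyp4a14 still had 48.0%, above 98.1% of genes, and Cyp4a10 fell to 24.6%, above 67.1%.

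**Figure D4:**
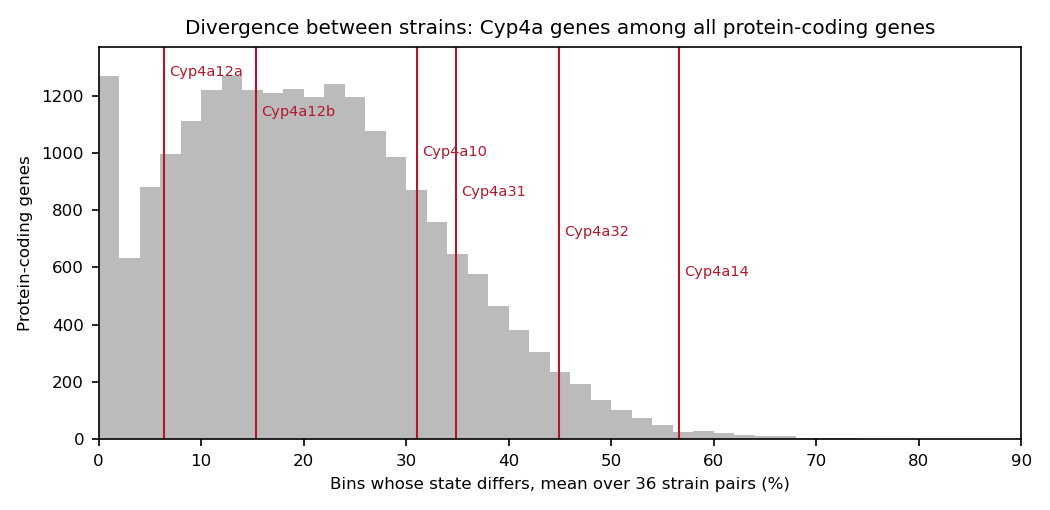
Histogram of 21631 protein-coding genes by the percentage of bins whose state differs, averaged over 36 strain pairs (x axis), with red lines at the 6 genes. Cyp4a14 at 56.6% and Cyp4a32 at 44.9% lie in the right tail, and Cyp4a12a at 6.37% lies at the left.

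The strain pairs behind these means differed by gene. At Cyp4a32 the closest pair was 129S1/SvImJ and NZO/HlLtJ, with 3.88% of bins differing. A/J differed from CAST/EiJ in 20.2% of bins there and from 129S1/SvImJ and C57BL/6J in 72.9%, the widest value for this gene. At Cyp4a14 the pairs ran from 21.1%, between C57BL/6J and NZO/HlLtJ, to 93.0%, between 129S1/SvImJ and PWK/PhJ. At Cyp4a10 the closest pair was 129S1/SvImJ and C57BL/6J, at 10.2%, and the widest, at 60.2%, were PWK/PhJ with 129S1/SvImJ and with CAST/EiJ. Over all 744 bins, PWK/PhJ differed most from the rest, by 37.5% on average, and the other strains lay between 22.6% and 29.97%. Bins in which 1 strain departed from a state shared by the other 8 made up 5.78% in PWK/PhJ, 2.69% in A/J and at most 0.806% elsewhere. Genome-wide, such bins made up 4.38% in PWK/PhJ, 1.28% in A/J, 2.26% in CAST/EiJ and 2.47% in WSB/EiJ.

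A core was common to all strains. Bins in states 1 to 3 in every strain numbered 28 of 98 in Cyp4a10, 18 of 71 in Cyp4a14, 17 of 129 in Cyp4a32 and 11 of 98 in Cyp4a31. There were 0 in Cyp4a12a and in Cyp4a12b. In Cyp4a10, 96 of 98 bins were outside state 14 in all 9 strains. In Cyp4a12a, 165 of 190 bins were in state 14 in all 9.

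The level of a gene over the 9 strains was compared with that of other genes that had an SD of at least 5 points. Pearson's r serves as a description only, since each point is a strain whose libraries the genes share, and the genes below are the 2 highest of 3921 candidates more than 1 Mb away. They were Usp10 (r = 0.964) and Chtop (r = 0.955) for Cyp4a14, and E130309D02Rik (r = 0.964) and Chkb (r = 0.962) for Cyp4a10. They were Gm13279 (r = 0.906) and Cdc42ep5 (r = 0.895) for Cyp4a31, and Hcst (r = 0.955) and Serpina1e (r = 0.888) for Cyp4a32. Between members, r was 0.881 for Cyp4a10 with Cyp4a31, both lowest in PWK/PhJ, and -0.50 for Cyp4a14 with Cyp4a32.

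Neighbouring genes of the same family lay below Cyp4a10, Cyp4a14, Cyp4a31 and Cyp4a32 in the level of states 1 to 3. Cyp4a29 and Cyp4a30b, which lie to the left of and within the cluster, had 0 bins of states 1 to 3 in all strains. Cyp4b1, to the right of Cyp4a32, had 6.54% ± 5.28 (SD, n = 9), highest in PWK/PhJ at 19.1%, and its mean was above those of Cyp4a12a and Cyp4a12b. Cyp4x1 on the left had 0.278% of its bins in states 1 to 3 and 44.0% in state 13. Between the 6 genes, the remaining 894 bins of the window had 7.05% ± 1.12 in states 1 to 3, against 22.7% ± 3.80 within the genes (SD, n = 9).

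Lists of related genes gave the frame for these levels. Among 13 other Cyp4 genes, the median level was 6.54%, from 0% in Cyp4a29 to 53.0% in Cyp4v3, and state 3 was present in every strain in 4. Among 20 genes of PPAR-alpha and fatty acid oxidation, the median was 57.7%. It ran from 18.5% in Slc25a20, the mitochondrial carnitine carrier, to 99.3% in Rxra, the partner receptor of PPAR-alpha. State 3 was present in every strain in 16 of these 20 and in 0 of the 6 Cyp4a genes, against 45.1% of all protein-coding genes. Of the other 4, Ehhadh had it in 6 strains, and Acot1, Fgf21 and Vnn1, known targets of the receptor, in 1 strain each. These 4 were named here after their values were seen.

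Genes known to differ by sex in liver were also read. No male sample was analysed here, so the part of sex in the levels of Cyp4a12a and Cyp4a12b was not tested. The 10 male-predominant genes had a median level of 27.8%, from 0.293% in Moxd1 to 67.7% in Cyp2d9. The 10 female-predominant genes had a median of 62.8%, from 16.6% in Cux2 to 99.1% in Cyp2a4. The levels of Cyp4a12a and Cyp4a12b were above only Moxd1 among the male-predominant genes. The median divergence was 38.5% in the male-predominant list and 46.2% in the female-predominant list, and 31.8% in the PPAR-alpha list.

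**Figure D5:**
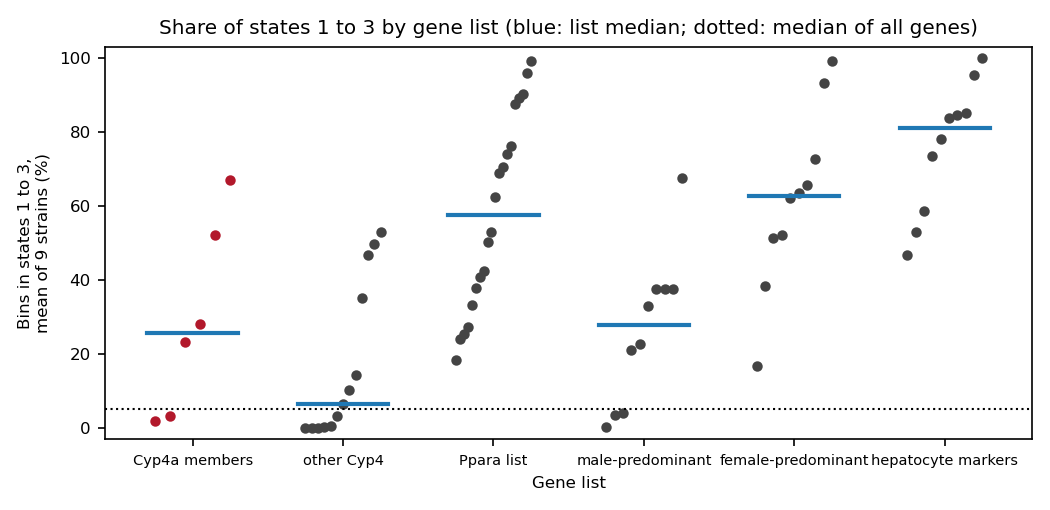
Mean share of bins in states 1 to 3 over 9 strains (y axis, %) for each gene of 6 lists (x axis); points are genes, blue lines are list medians and the dotted line is the median of all protein-coding genes, 5.14%. The Cyp4a genes reach from 1.75% to 67.1%, with a median of 25.7%, and the PPAR-alpha list has a median of 57.7%.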

How the data were processed

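ChIP-seq libraries (117, 13 per strain) were grouped by the strain named in the labels. Per the submitters' processing notes, FastQC 0.11.5, MACS 1.4.2 and build mm10 were used; the segmentation tool is not given in the sources used here. The deposited maps, 1 per strain per the file headers, hold a state number and are no count, signal or score. A joined file identical to the 9 maps was not used. Gene spans came from a RefSeq table (GRCm38.p6), which is the same build.

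A bin belonged to a gene if at least 1 bp lay in the span with 2 kb to each side. Pairs of genes were tested by exact sign exchange over strains (512 patterns, threshold 0.05). The members, the lists and the states compared were chosen with earlier results of these data known. Named were the 6 members, Cyp4 genes within 200 kb, the 2 genes most like each variable member, and the lowest and highest gene of each list. Alternatives covered span, single-bin segments, shared bins, state sets, matching and left-out strains. Python 3.11.15, numpy 2.4.6, pandas 2.3.3 and matplotlib 3.10.9 were used, and the functions were tested on simulated data.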

Additional observations from a re-analysis of the deposited data

Results flagged for a closer look

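In each gene, the 9 strain values were searched for a strain that lay apart from the rest by more than Dixon's 95% critical value for 9 samples, a gap measured against the whole range, for the shares of states 1 to 3, of bins outside state 14, of state 4 and of state 6. Of 24 such sets, 6 held one. Independent sets of normally distributed values would give about 1.20. The shares are counts of bins within limits, often at 0% or 100%. The sets also rest on the same bins and are not independent. The count of 6 therefore cannot be read as an excess over 1.20. PWK/PhJ was the strain in 5 of them. At Cyp4a10 it had the lowest share of states 1 to 3, 30.6% against 63.3% in the next strain, and the highest share of state 6, 35.7% against 15.3%. At Cyp4a14 it had the lowest share outside state 14, 31.0% against 87.3%. At Cyp4a12b it had the highest share of state 6, 17.1% against 3.80%, and of state 4, 3.16% against 1.27%. NOD/ShiLtJ had the lowest share outside state 14 at Cyp4a10, 98.0% against 99.0%, a difference of a single bin.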

How the results depend on the processing

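Of 15 gene pairs, 14 differed in the share of states 1 to 3, and between 12 and 13 when a strain was left out. The count was 13 with single-bin segments left out, 12 with states 4 and 6 added and 10 within 1 kb of gene ends. With state 3 alone, 0 pairs differed, and the difference turned direction for Cyp4a14 minus Cyp4a10 (1.10 points), Cyp4a14 minus Cyp4a32 (-0.024 points) and Cyp4a10 minus Cyp4a32 (-1.12 points); 4 genes have no bin of state 3. Within 1 kb of gene ends, Cyp4a14 minus Cyp4a10 was 8.59 points (adjusted exact permutation p = 0.156), in the other direction. There the calls were also lost for Cyp4a14 minus Cyp4a32 (8.59 points, adjusted exact permutation p = 0.156), Cyp4a10 minus Cyp4a31 (3.03 points, p = 0.536) and Cyp4a10 minus Cyp4a32 (0 points, p = 1). The median share of states 1 to 3 over the 6 genes, 24.8% when taken in each strain and averaged over strains, became 48.2% at gene ends, 0% with state 3 alone and 48.9% with states 4 and 6 added. The median share outside state 14, taken likewise, was 50.7% and became 70.5% at gene ends. The median divergence of 33.0% lay between 28.7% and 34.5% when a strain was left out. Genes were paired within a strain. For the numbered mice of different strains, no paired analysis was possible because each map combines the mice of a strain and carries no replicate number. The unknown read depth limits every value: a bin in state 14 may hold marks too weak to be called.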
